A study of Homo sapiens with 2 samples.

Results

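The genes described here are 10 long non-coding RNAs that are widely studied in cancer: MALAT1, NEAT1, TUG1, NORAD, KCNQ1OT1, OIP5-AS1, MEG3, H19, PVT1 and HULC. They were chosen by name. An m6A peak was counted for a gene when its summit lay inside the RefSeq span of that gene on hg38, whatever gene the deposited table names for the peak. By this rule 6 of the 10 genes held 34 of the 39801 peaks in the list, and MALAT1, MEG3, H19 and HULC held none.

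The material was HCCLM3, a human hepatocellular carcinoma cell line, labelled as wild type (WT), with no treatment named in the labels. RNA captured with an m6A antibody (m6A-RIP, Magna RIP kit, 1 library) was set against the unselected RNA (input, 1 library), both made into libraries with a stranded SMARTer pico-input kit. The study behind the series concerns CRTC2, a CREB coactivator, and the m6A reader YTHDF2, neither of which was altered in these cells as far as the labels say. With 1 library of each kind there is no replicate, so intervals below cover counting error only and no test between conditions exists. The list holds peaks, not expression levels. Among hepatocyte markers, HNF4A, APOB and CEBPA held a peak and ALB, APOA1, TTR and SERPINA1 held none. Neither AFP nor GPC3 held one. Of 4 endothelial and stromal markers 2 held a peak, PECAM1 and LUM, and of 3 immune markers none did.

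m6A is placed on RNA in the nucleus by a methyltransferase complex built around METTL3 and METTL14, mostly at adenosines in a short sequence context that often contains GGAC, and in mRNAs it is frequent in long exons and near the stop codon. Proteins of the YTH family read the mark, in the nucleus or in the cytoplasm, and can alter splicing, export, translation and decay. Long non-coding RNAs carry the mark too, and MALAT1 is a classic example. The 10 genes differ in where their RNAs act: MALAT1 in nuclear speckles, NEAT1 in paraspeckles, KCNQ1OT1 on chromatin next to its own gene, and NORAD in the cytoplasm.

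Each value below is the peak's own, as the authors' peak caller gave it or as recovered from it. The fold is RIP over input at the summit, on a linear scale, with a pseudocount of 1 added to both sides. The RIP fragments are the whole number of fragments over the summit. The input level is the level the caller set against them, in units of fragments. It need not be a count of input at the summit, as 26.3% of all peaks share the lowest level, 0.246. RIP fragments were scaled by 0.642 before the ratio. The q-value is the caller's p-value after the caller's own correction. That correction took in more than the listed peaks. Every listed peak had a p-value under 0.05, and only 48.8% had a q-value under 0.05. The full set it covered is not given here.

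Peaks were unevenly spread over the genes. KCNQ1OT1 held 13, PVT1 10, TUG1 6, NEAT1 and OIP5-AS1 2 each, and NORAD 1. A summit was found in 60.0% of these genes, against 14.0% of 18303 RefSeq lncRNA genes and 49.3% of 20037 protein-coding genes. These sets were not matched on length or RNA level. lncRNA genes that overlap a protein-coding gene were kept, and a summit in the shared part counted for both. The same 6 of the 10 genes held a peak with a q-value under 0.05, against 7.43% of lncRNA genes and 39.0% of protein-coding genes. At a q-value under 1e-5 there were 5 of the 10, against 4.41% and 28.5% of those backgrounds. A peak with a fold of at least 4 was held by 4 of the 10, TUG1, PVT1, KCNQ1OT1 and OIP5-AS1, against 6.20% and 30.9%. KCNQ1OT1 was the gene missing at the stricter q-value.

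**Figure D1:**
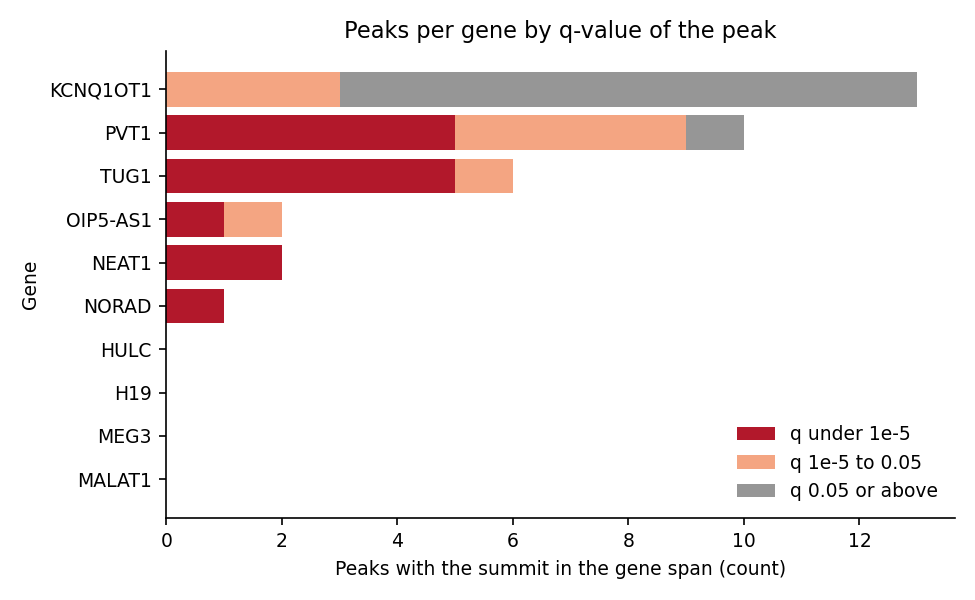
Number of peaks with the summit in each gene's span (horizontal axis, count), stacked by the q-value of the peak. KCNQ1OT1 has 13 peaks of which 10 have a q-value of 0.05 or above, whereas all 6 peaks of TUG1 are under 0.05, and 4 genes have no bar.

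Among the 34 peaks, 23 had a q-value under 0.05 (67.6%, exact binomial interval 49.5 to 82.6), against 48.8% of all 39801 peaks. At a q-value under 1e-5 there were 14 (41.2%, interval 24.6 to 59.3), against 25.8% of all peaks. A fold of at least 4 was reached by 13 (38.2%), against 33.9% of all peaks. Peaks of 1 gene share a transcript, so these intervals may be too narrow. The genes differed among themselves: 20 of the 21 peaks outside KCNQ1OT1 had a q-value under 0.05, and 3 of the 13 in KCNQ1OT1.

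The median fold of the 34 peaks was 3.50 (quartiles 2.76 to 4.83), and that of all peaks was 3.33 (2.35 to 4.61). The depth behind the values differed more. The median peak of these genes rested on 26 RIP fragments, against 9 over all peaks and 6 over 3475 peaks in other lncRNA genes that overlap no protein-coding gene. Peaks resting on at most 3 fragments made up 5.88% of the 34, 21.4% of all peaks and 27.9% of those in other lncRNA genes. The 925 peaks in genes with LINC names had a median fold of 3.11 and 37.9% with a q-value under 0.05. The 22 peaks in the snoRNA host genes with SNHG names had a median fold of 3.36 and 11 of them under 0.05. Over all peaks the median fold differed with the input level, being 2.35 at an input under 0.3, 4.11 at 1 to 4 and 2.78 at 16 or more. Within 5 such classes of input level, 18 of the 34 peaks lay above the median fold of all peaks of their class.

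**Figure D2:**
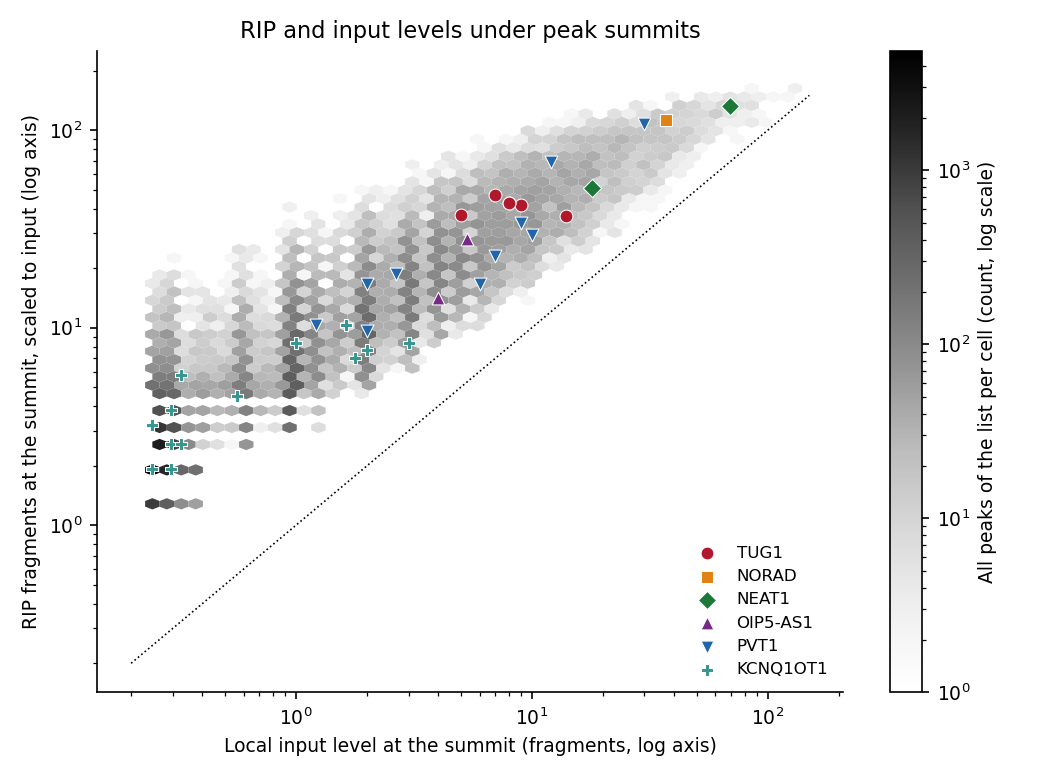
RIP fragments scaled to the input (vertical log axis) against the local input level (horizontal log axis) at the summit, in fragments. Grey cells count all 39801 peaks, coloured symbols are the 34 peaks of the 6 genes, and on the dotted line RIP equals input; KCNQ1OT1 lies at low counts, NEAT1 and NORAD at high ones, and 2 TUG1 peaks with equal values coincide.

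TUG1, a widely expressed RNA first described in the developing retina, was the gene most densely covered. It lies on the plus strand of chromosome 22 from 30969265 to 30979395, and RefSeq now gives it a protein-coding biotype, unlike the other 9. Its 6 peaks covered 46.0% of the 10.1 kb span, or 5.92 peaks per 10 kb. Neighbouring summits lay between 842 and 2244 bp apart.

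From the 5′ to the 3′ end, the TUG1 summits had 57, 65, 73, 67, 67 and 58 RIP fragments (36.6, 41.7, 46.8, 43.0, 43.0 and 37.2 after scaling). The input level there was 14.0, 9, 7, 8, 8 and 5. The RIP side thus varied little along the RNA, and input was highest at the summit nearest the 5′ end and lowest at the one nearest the 3′ end. The folds in the same order were 2.50 (interval 1.91 to 3.23), 4.27 (3.32 to 5.42), 5.98 (4.71 to 7.49), 4.89 (3.81 to 6.18), 4.89 (3.81 to 6.18) and 6.37 (4.88 to 8.18). The interval of the peak nearest the 5′ end overlapped none of the others, and the other 5 overlapped one another. The peaks at 6.28 and 7.34 kb from the 5′ end had the same fragment number and input level.

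The TUG1 peak of highest fold, from 30977354 to 30978990, was also the broadest of the 34 at 1637 bp and lay in exon 3 of 3, with its summit 9.46 kb from the 5′ end. Its q-value was 2.94e-17, and 89.8% of all peaks had a lower fold. The peak with the lowest q-value in the gene, 1.60e-19, lay in exon 2 of 3 from 30973019 to 30973721. The 2 peaks nearest the 5′ end, from 30970641 to 30970949 and from 30971249 to 30971905, carry promoter labels in the deposited table, which reach 3 kb from a start; both lie inside the transcribed span. TUG1 was also ranked with the lncRNA genes, those that overlap a protein-coding gene among them. Of the 2562 genes with a peak in this ranking, TUG1 came at place 456 by highest fold. By its number of peaks with a q-value under 0.05 it came at place 39.

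A strong peak lay just outside TUG1. It ran from 30967698 to 30968917 with a summit 1178 bp before the TUG1 start, inside MORC2, a gene on the opposite strand that encodes a chromatin-silencing ATPase. It had 74 RIP fragments over an input level of 7.10, a fold of 5.98 (4.72 to 7.48). Its right edge passed the RefSeq start of MORC2 at 30968774 and ended 348 bp short of the TUG1 start. The stretch of the peak beyond the MORC2 start, chr22:30968775-30968917 (hg38, minus strand, from the RefSeq promoter table of GRCh38.p14), is shown because it is the part of the peak that neither gene's RefSeq span holds. Capitals mark GGAC, the core of the m6A context, searched on both strands as GGAC and GTCC.

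MORC2 upstream stretch: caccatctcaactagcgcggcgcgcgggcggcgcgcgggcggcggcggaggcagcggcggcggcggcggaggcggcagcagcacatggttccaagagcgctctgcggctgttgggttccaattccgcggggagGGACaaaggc

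GGAC occurred 1 time in these 143 bases on the printed strand and GTCC was not found. At least 1 of these forms was present in 64.4% of all 35116 promoter stretches of the same length and place, so a match here is common. The deposited list has no strand, so RNA of MORC2 and RNA running the other way cannot be told apart at this peak.

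NORAD, a cytoplasmic RNA that binds PUMILIO proteins and is linked to genome stability, held 1 broad peak. The gene is 5.34 kb long on the minus strand of chromosome 20, from 36045618 to 36050960, and its RNA is unspliced. The peak ran from 36049723 to 36050789, 1067 bp or 20.0% of the span, with its summit 980 bp from the 5′ end, and has a promoter label for that reason. At the summit 174 RIP fragments (112 after scaling) stood against an input level of 37.0, a fold of 2.96 (2.54 to 3.43) with a q-value of 2.02e-19. Only 213 peaks of the list had more RIP fragments. The fold was below the list median of 3.33, while the q-value was among the lowest of the 34.

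NEAT1, the RNA scaffold of paraspeckles, held 2 peaks, both of low fold. It lies on the plus strand of chromosome 11 from 65422798 to 65445540. The first peak, from 65424450 to 65424757, had 205 RIP fragments (132 after scaling) over an input level of 69.0, a fold of 1.89 (1.64 to 2.17). This was the lowest fold and the largest number of fragments of the 34 peaks. The input level was below it in 99.9% of all peaks. The second peak, from 65440454 to 65440754, had 79 RIP fragments (50.7 after scaling) over an input level of 18.0, a fold of 2.72 (2.16 to 3.38). The summits lay at 1.76 and 17.8 kb from the 5′ end, so the second lies in the part of the gene that the short NEAT1 isoform lacks. The 2 intervals met by a narrow margin, and both q-values were under 1e-5 (1.71e-08 and 2.11e-07). No peak of the list had more than 280 RIP fragments at its summit, and whether duplicate reads were removed is unknown here. If they were, folds of abundant RNAs such as NEAT1 and NORAD may be compressed, which was not tested.

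OIP5-AS1, known as cyrano and in mouse as an RNA that promotes the decay of the microRNA miR-7, held 2 peaks close together. The gene lies on the plus strand of chromosome 15 from 41282697 to 41313338. Both peaks lay in exon 4 of 4, with summits 1052 bp apart near the middle of the 30.6 kb span. The peak from 41298249 to 41298650 had 44 RIP fragments (28.2 after scaling) over an input level of 5.33 and a fold of 4.62 (3.40 to 6.15). The one from 41299323 to 41299644 had 22 (14.1 after scaling) over 4 and a fold of 3.02 (1.97 to 4.47). The intervals overlapped, and the q-values were 1.49e-09 and 0.0102. Neither summit lay in the overlapping gene OIP5.

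PVT1, a long gene that neighbours the proto-oncogene MYC, held 10 peaks over 307 kb of chromosome 8 (127794524 to 128101256), of which 9 carried intron labels. Of these, 5 lay in intron 1, 3 in intron 5 and 1 in intron 2 of 8. The gaps were wide, up to 92.8 kb between neighbouring summits, and peaks covered 1.61% of the span. By q-value, 9 were under 0.05 and 5 under 1e-5. In the same ranking as for TUG1, PVT1 came at place 16 by its number of peaks with a q-value under 0.05.

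The PVT1 peak with the lowest q-value of all 34, 3.82e-26, lay in intron 1 from 127812031 to 127812841. It had 108 RIP fragments (69.3 after scaling) over an input level of 12.0 and a fold of 5.41 (4.45 to 6.51). The peak in intron 2, from 127897303 to 127898548, had 168 fragments (108 after scaling) over an input level of 30.0, a fold of 3.51 (3.0 to 4.08) and a q-value of 4.39e-24. An input level of 30.0 within an intron label stood above those of all TUG1 peaks. The labels refer to 1 spliced PVT1 transcript, and PVT1 is known to be spliced in many ways, so whether the RNA under these peaks was intronic was not tested.

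The highest PVT1 fold was at the 3′ end. In exon 9 of 9, from 128101032 to 128101359, 26 RIP fragments stood against an input level of 2, a fold of 5.89 (3.97 to 8.48, q-value 8.17e-08). The summit was 91 bp before the end of the span and the peak reached 103 bp past it. It lay nearer to an edge of its gene than any other of the 34 summits.

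The remaining PVT1 peaks lay in introns, on 15 to 53 fragments each. In intron 1, summits at 40.2, 45.2, 72.2 and 89.3 kb from the 5′ end had 26, 53, 15 and 16 RIP fragments over input levels of 6, 9, 2 and 1.21. Their folds were 2.53 (1.70 to 3.63), 3.50 (2.65 to 4.55), 3.54 (2.13 to 5.62) and 5.09 (3.10 to 7.98). The one at 40.2 kb was the only PVT1 peak with a q-value above 0.05 (0.0692), and all 4 intervals overlapped. In intron 5, summits at 196, 226 and 238 kb had 36, 46 and 29 fragments over 7, 10 and 2.66, with folds of 3.01 (2.15 to 4.12), 2.77 (2.06 to 3.67) and 5.35 (3.67 to 7.57). The one at 238 kb had the highest fold and the lowest input, and its interval overlapped that of the one at 196 kb and met that of the one at 226 kb at its edge.

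**Figure D3:**
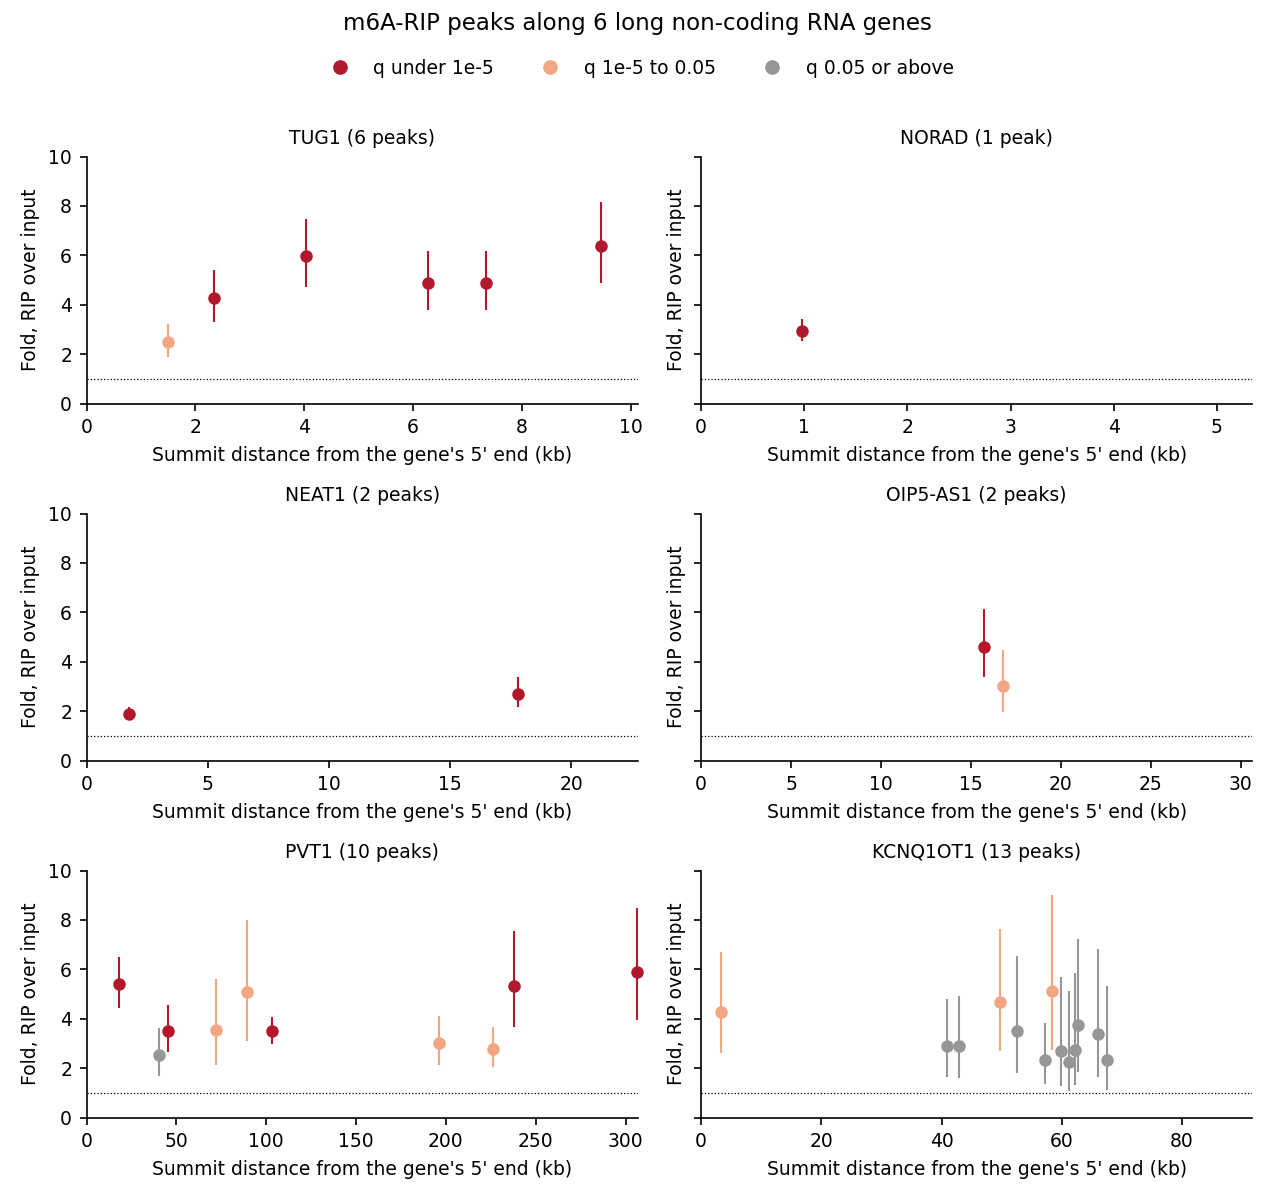
Fold of RIP over input (vertical axis) at the distance of each summit from the 5′ end of its gene (horizontal axis, kb; each panel spans its gene), with exact Poisson 95% intervals; colour gives the q-value class, and the dotted line marks a fold of 1. TUG1 is covered along its length, PVT1 is sparse, and 12 of the 13 KCNQ1OT1 peaks stand between 40.9 and 67.5 kb.

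KCNQ1OT1, an imprinted RNA transcribed from the paternal allele that silences neighbouring genes on its own chromosome, held the most peaks, all of them on few fragments. It is a 91.7 kb transcript without introns on the minus strand of chromosome 11 (2608328 to 2699994) and lies inside KCNQ1, a potassium channel gene on the opposite strand. Its 13 peaks had 3 to 16 RIP fragments each and input levels from 0.246, the lowest in the list and shared by 26.3% of all peaks, to 3. The median was 7 fragments, and 8 peaks had under 10. The folds ran from 2.26 to 5.11 with a median of 2.90.

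Only 3 of the 13 had a q-value under 0.05. The peak from 2641392 to 2641734 had 9 RIP fragments (5.77 after scaling) over an input level of 0.326, a fold of 5.11 (2.75 to 9.02) and a q-value of 0.000831. The peak from 2649658 to 2650348 had 13 over 1, a fold of 4.67 (2.72 to 7.63). The peak from 2696637 to 2696966 had 16 over 1.63, a fold of 4.29 (2.61 to 6.72). All 3 intervals overlapped widely, and none of the 3 reached a q-value under 1e-5.

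The other 10 had 3 to 13 fragments each. Nearest the 3′ end, the summits at 67.5, 66.0, 62.7, 62.1, 61.2 and 59.8 kb from the 5′ end had 3, 5, 6, 4, 3 and 4 RIP fragments over input levels between 0.246 and 0.326, with folds of 2.35, 3.38, 3.74, 2.75, 2.26 and 2.69. The q-values of those at 66.0 and 62.7 kb, 0.0537 and 0.0957, were close to the threshold. At 57.3, 52.6, 42.9 and 40.9 kb there were 13, 7, 11 and 12 fragments over 3, 0.562, 1.78 and 2, with folds of 2.34, 3.51, 2.90 and 2.90. Every lower bound was above 1, down to 1.08, without any correction. These bounds rest on the same counts by which the caller chose the peaks. They are therefore no separate evidence of enrichment at these 10 summits.

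The KCNQ1OT1 peaks lay close together, a grouping described after their positions were seen. Of the 13 summits, 12 fell within 26.6 kb, or 29.0% of the span, with a median of 1443 bp between neighbours. The remaining one lay 37.6 kb away, 3.23 kb from the 5′ end. The 24.2 kb nearest the 3′ end held no summit. All 13 peaks lie in KCNQ1 as well, and the list records no strand, so RNA of the 2 genes cannot be told apart. KCNQ1 spans 404 kb, of which KCNQ1OT1 takes 22.7%, and no other summit fell in the rest of KCNQ1. The nearest peaks outside KCNQ1OT1 were 188 and 205 kb away.

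**Figure D4:**
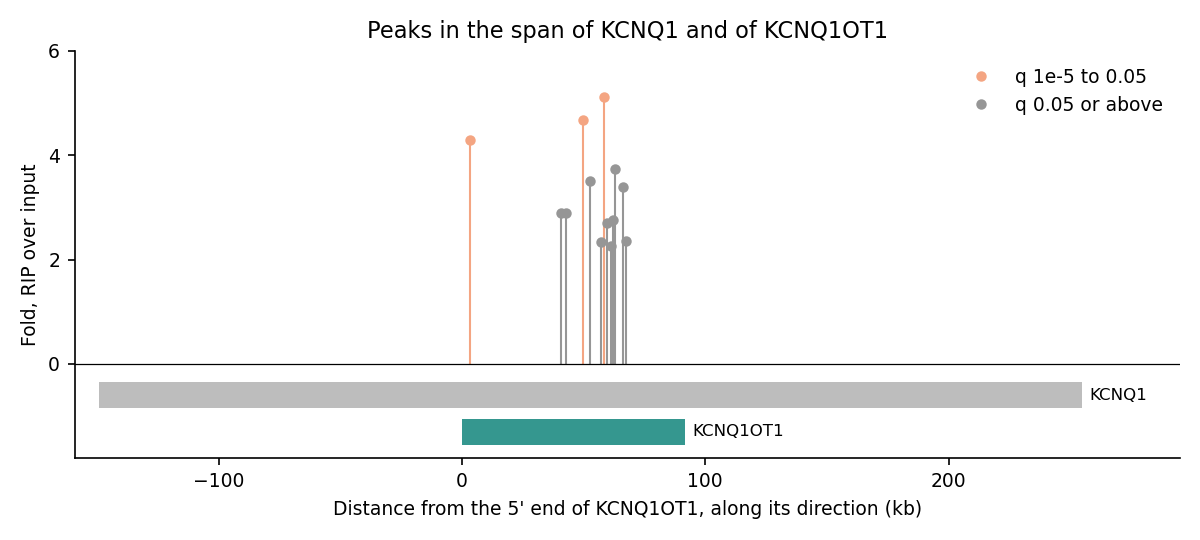
Fold of RIP over input (vertical axis) of every peak in the span of KCNQ1, placed by distance in kb from the 5′ end of KCNQ1OT1 along its direction; bars below the axis are the gene spans and colour gives the q-value class. All 13 peaks stand over KCNQ1OT1, 12 of them within 26.6 kb, and the rest of KCNQ1 is empty.

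The order of the genes by highest fold was TUG1 (6.37), PVT1 (5.89), KCNQ1OT1 (5.11), OIP5-AS1 (4.62), NORAD (2.96) and NEAT1 (2.72). Neighbours in this order did not differ beyond their counting intervals. The interval of TUG1 lay above those of NORAD and NEAT1, as did that of PVT1. Each value is the highest of 6, 10, 13, 2, 1 and 2 peaks respectively, and the intervals do not cover that choice. The median folds, with the genes in the same order, were 4.89, 3.53, 2.90, 3.82, 2.96 and 2.31. The order by highest fold also depended on the pseudocount. Without it the ratio at the same summits was 17.7 (8.11 to 33.7) in KCNQ1OT1, 8.34 (5.45 to 12.2) in PVT1, 7.44 (5.65 to 9.62) in TUG1, 5.30 in OIP5-AS1, 3.02 in NORAD and 2.82 in NEAT1. At these summits NORAD and NEAT1 had the highest input levels, 37.0 and 18.0, and the lowest folds. The KCNQ1OT1 ratio rests on an input level of 0.326, near the lowest of the list.

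By label, 21 of the 34 peaks were exonic, 9 intronic and 4 at promoters, all 4 with the summit inside the gene. Of the exonic peaks, 20 lay in the last or only exon of the labelled transcript: 14 in KCNQ1OT1 and NEAT1, which have 1 exon there, and 6 in the last exon of TUG1, OIP5-AS1 or PVT1. The other lay in exon 2 of TUG1.

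Gene names in the deposited table followed these genes poorly. The table's gene symbol was the gene that held the summit for 15 of the 34 peaks. For 10 the symbol was empty, which covers TUG1 and OIP5-AS1, whose identifiers were correct, and 2 peaks of PVT1. By identifier 23 matched and 11 named another gene. All 10 PVT1 peaks were among those 11, given to the microRNA genes MIR1204, MIR1206, MIR1207 and MIR1208 or to LINC02912. The second NEAT1 peak was given to MIR612. Conversely, 3 of the 18 peaks that carry a symbol of the 10 genes had their summit outside the gene. One is the peak named MALAT1, on 3 RIP fragments with a fold of 2.21 and a q-value of 1, which lay 15.0 kb before the gene. Another, in the 3′ UTR of FRMD8 with a fold of 3.57 (2.89 to 4.36), was named NEAT1 and lay 10.8 kb away.

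The 4 genes without a peak also held none when any overlap was counted or their spans were widened by 1 kb. MALAT1, the abundant RNA of nuclear speckles, lies on chromosome 11 from 65497738 to 65506516. Its nearest peak was the one 15.0 kb before it. MEG3, an imprinted RNA expressed from the maternal allele, lies on chromosome 14 from 100826108 to 100861026 and its nearest peak summit was 136 kb away. H19, a maternally expressed RNA abundant in fetal liver, lies on chromosome 11 from 1995176 to 2001266 and its nearest was 247 kb away. HULC, named for its high level in liver cancer, lies on chromosome 6 from 8652269 to 8653856 and its nearest was 217 kb away. The list gives no input level at a place without a peak, so lack of RNA, lack of enrichment and, for an abundant RNA such as MALAT1, a limit on counts from removal of duplicates cannot be told apart for these genes.

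A further 48 well-studied long non-coding RNAs were looked up in the same way. Of these, 17 (35.4%) held a peak, 13 with a q-value under 0.05 and 10 with one under 1e-5. Summits that also lie in an overlapping gene were not left out, and the list records no strand. The shares over all RefSeq lncRNA genes, not matched on length or RNA level, were 14.0%, 7.43% and 4.41%. RefSeq gives RN7SK, RMRP, TERC and TINCR of the 48 a biotype other than lncRNA, and none of them held a peak. The 4 of highest fold were FIRRE, which helps organise chromatin in the nucleus (21.4, 16.6 to 27.1, on 65 RIP fragments), MIR4435-2HG (15.9, 11.1 to 22.1, on 32), and JPX (12.4, 10.3 to 14.8, on 115) and FTX (11.3, 8.55 to 14.6, on 54), both regulators of X inactivation. Each of these lay above the upper bound of 8.18 on the highest TUG1 fold. They are the highest of 12, 27, 8 and 13 peaks respectively, against 6 in TUG1, a choice that the intervals do not cover. By the fold and RIP fragments of the strongest peak, the genes most like TUG1 were CYKILR and LOC107985200, each with a fold of 6.37 on 58 fragments, and SNRPA1-DT, with 6.44 on 59. This likeness rests on 1 RIP and 1 input library. The span of SNRPA1-DT overlaps the protein-coding gene PCSK6. The list records no strand, and whether the SNRPA1-DT peak came from RNA of PCSK6 was not tested.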

How the data were processed

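Per the submitters' processing notes, HISAT2 and MACS2 were used on hg38. Versions, settings and removal of duplicates were not given in the sources used here. A single peak table was deposited by the authors. Its fold is a ratio of RIP to input, per the file headers. The headers of 2 columns were damaged; the deposited values were read as a −log10 p-value and a −log10 q-value, since the Poisson model below returns the first, whose lowest value is 1.30. Of the deposited scores, 99.99% equal 10 times that column rounded down. Peaks are numbered up to 39824, and 23 of these numbers were not analysed here.

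Summits (start plus offset) were placed in RefSeq gene spans of GRCh38.p14. RIP fragments and input level were recovered from fold and p-value as a Poisson tail (pseudocount 1, tolerance 0.001 on the −log10 scale, scaling 0.642). This met 100% of peaks, 98.2% of them by 1 whole number only, among these all 34 described here. The step was tested on data simulated from the same formula, which checks the inversion and not the model. The scaling makes the RIP library 1.56 times the input; total depth is unknown. Each fold interval (exact Poisson, 95%) comes from the RIP fragments, with input held fixed, and each share's interval is exact binomial. Without molecular identifiers a fragment need not be a separate molecule, so all intervals cover counting error only. The alternatives varied the threshold, the depth, the overlap rule, the gene name and the label. The genes and lists were chosen with earlier results of these data known. All 10 genes are named, with their peaks, with the 4 strongest of the 48 further RNAs and the 3 genes closest to the strongest by log2 fold and log2 fragments. Python 3.11.15, numpy 2.4.6, pandas 2.3.3 and scipy 1.17.1 were used. Some items looked up are not reported here.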

Additional observations from a re-analysis of the deposited data

How the results depend on the processing

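The count of genes with a peak was 6 under every rule on overlap, span and region label, 5 where q-values had to be under 1e-5, and 4 with a fold of at least 4 or by the deposited gene symbol, which adds MALAT1 and drops TUG1, OIP5-AS1 and PVT1. The number of peaks, 34 as reported, was 14 with that q-value, 13 with that fold and 18 by the deposited symbol. The median fold of 3.50 became 4.75 and 5.09 under the q-value of 1e-5 and the fold minimum, which leave fewer peaks by construction. The share with a q-value under 0.05 was 100% at a fold of at least 4, 84.6% with at least 10 fragments and 33.3% by the deposited symbol, most of whose peaks are in KCNQ1OT1. Of the 48 further RNAs, 10 held a peak with a q-value under 1e-5. Of 54 recomputed highest folds, 52 stayed within the counting interval. The exceptions were NEAT1 by the deposited symbol (3.57) and KCNQ1OT1 without the pseudocount (17.7). Most of these alternatives kept the same top peak, so its fold could not change. Settings that left a gene without a peak were not counted, so the 52 say little about robustness. No paired analysis was possible because there is 1 RIP and 1 input library. Low counts limit KCNQ1OT1 most.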
